A study of Sus scrofa with 24 samples.

Results

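Steroid hormones are made from cholesterol by a chain of enzymes, and 10 genes of that chain were examined: STAR, CYP11A1, CYP17A1, HSD17B1, CYP19A1, HSD17B4, SRD5A1, CYP21A2, HSD11B2 and the regulator NR5A1. They were chosen by symbol, and a probe was taken for a gene where the annotation of the array names that symbol. Of the 10 genes, 7 had a named probe, with 9 probes among the 43749 of the array, and these 7 stand among 11906 genes with a symbol. CYP11A1, CYP19A1 and HSD17B4 had no named probe and were not analysed here.

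The RNA came from whole pig embryos at day 30 of gestation. Their mothers, primiparous sows after their first litter, had been kept under IS21FE, under IS21SE or as controls. Both strategies combine intermittent suckling with a breeding scheme, and the labels do not say what the letters stand for. A pool held 3 embryos of a single sex from a single sow, and 3 sows of each strategy and 6 control sows gave 24 pools. Each replicate set a treated pool against a control pool of the same sex on 2 arrays with exchanged dyes, which gave 4 groups of 3 replicates: IS21FE females, IS21FE males, IS21SE females and IS21SE males. That number leaves 12 control pools for 12 replicates. Female and male pools of a strategy came from the same 3 sows, so that the 6 pools of a strategy are not 6 independent mothers.

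In steroid-making cells STAR carries cholesterol into the mitochondrion, where CYP11A1 cleaves its side chain. CYP17A1 opens the route to androgens, CYP19A1 turns androgens into oestrogens, and HSD17B1 reduces oestrone to oestradiol, while CYP21A2 belongs to the corticosteroid route of the adrenal cortex. NR5A1, also called steroidogenic factor, switches on many of these genes in the gonad and the adrenal, and the pig conceptus is known for the oestrogen that its trophoblast releases in early pregnancy.

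None of the 7 measured genes passed the test in any of 9 comparisons, and what the arrays show is a set of ratios that were wide for STAR, CYP17A1, HSD17B1 and NR5A1 and narrow for SRD5A1 and HSD11B2. HSD17B1 was negative in 3 of 3 female IS21FE replicates at almost the same ratio (-0.75 ± 0.067, SD, n = 3). CYP21A2 was negative in 10 of 12 replicates, and its mean ratio was -1.02 ± 0.54 in male IS21FE pools (SD, n = 3). STAR had a mean of 1.89 ± 0.66 in male IS21FE pools, from 2 measured replicates.

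A value here is a deposited log ratio of both dye channels, taken as log2, with the arrays that carried the control RNA in Cy5 multiplied by -1 so that a pair of arrays can be averaged. A positive ratio then stands for more RNA in the treated pool where a column is Cy5 divided by Cy3, and for less RNA where it is Cy3 divided by Cy5. Nothing in the files settles this, so ratios are called positive or negative and no direction of expression is drawn from them. Female arrays are less certain still: after the turn, the 2 arrays of a pair had the same sign in 46.1% of all female and 53.4% of all male pairs of probe values. Female arrays had SDs of 0.620 to 0.890 and male arrays larger ones, 0.937 to 1.33, so that sex and the scale of the arrays cannot be told apart. The table holds ratios and no levels, so that neither the sex of a pool nor the presence of gonad or adrenal cells could be checked in it.

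Coverage differed between the genes, as the plot of arrays with a value shows. SRD5A1 and HSD11B2 had a value on 24 of 24 arrays and CYP21A2 on 23. STAR had a value on 14 and CYP17A1 on 16. The 2 probes of HSD17B1 had values on 17 and 18 arrays, and those of NR5A1 on 12 and 14. The median over all probes with a symbol was 23 arrays, and 49.7% of them had a value on all 24. Over the 7 genes and 12 replicates 81 ratios were measured, and 23 of these rested on no probe with a value on both arrays of the pair. The rule behind the blanks is not given in the sources used here.

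**Figure D1:**
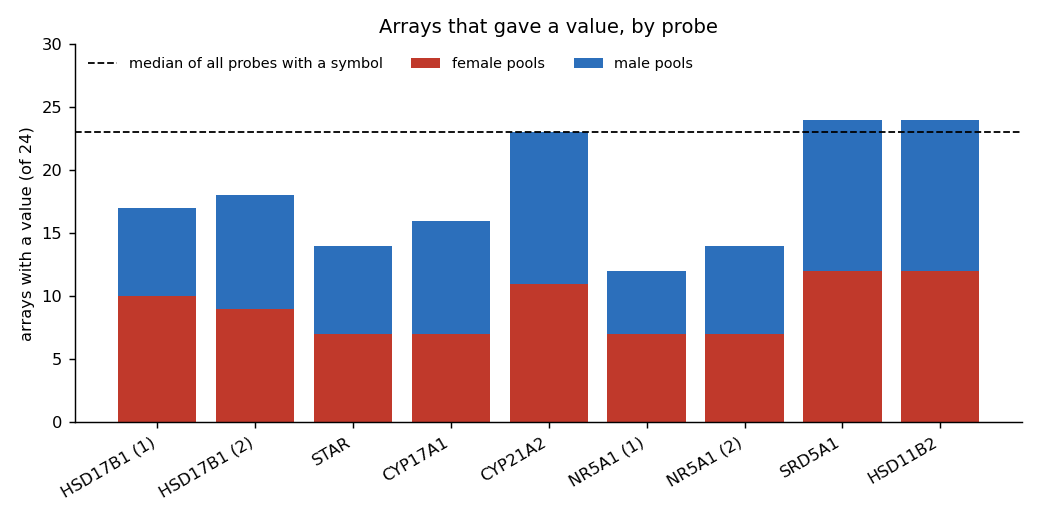
Number of the 24 arrays with a value (vertical axis) for each of the 9 probes (horizontal axis), split into female and male pools. The dashed line is the median of all probes with a symbol, 23 arrays; CYP21A2, SRD5A1 and HSD11B2 reach it and the other 6 probes lie at 12 to 18.

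The tests were run with limma over all genes measured in at least 2 replicates of each group concerned, with Benjamini-Hochberg adjustment and a threshold of 0.05. In the 4 comparisons with control, 0 of 7 steroid hormone synthesis genes passed in each. Of all genes, 0.00876% passed in male IS21FE pools, a single gene with only a locus identifier (LOC100155213), and 0% in female IS21FE, female IS21SE and male IS21SE pools. At an unadjusted p under 0.05, limma gave 0 of the 7 genes in female IS21FE pools, where 7.07% of all genes did so. It gave 2 in male IS21FE pools (CYP21A2 and STAR) against 7.49% of all genes. It gave 0 in female IS21SE pools against 4.03% and 0 in male IS21SE pools against 11% of all genes.

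The median size of the 7 mean ratios was above that of all genes in each group, by the least in male IS21SE pools. It was 0.59 in female IS21FE pools against 0.18 over all genes tested, and 0.83 against 0.16 in male IS21FE pools. It was 0.37 against 0.15 in female IS21SE and 0.22 against 0.20 in male IS21SE pools. Of the 7 means, 6 were negative in female IS21FE pools and 6 were positive in male IS21FE pools. In female IS21SE pools 5 were negative and in male IS21SE pools 4 were positive. These counts follow the turned sign and describe a short list without a test. The share of all genes with each sign was not counted, and the medians over all genes lay between -0.015 and 0.014 in the 4 groups. With no array turned the sign changed for 14 of the 28 group means of the members.

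The replicates spread widely as well. Over the replicates measured, the SD was 1.37 for HSD17B1, 1.33 for STAR, 1.05 for CYP17A1 and 1.04 for NR5A1, against a median SD of 0.41 over 10990 genes. At those values 95.0%, 94.3%, 88.0% and 87.7% of the genes had a lower SD. CYP21A2 followed with 0.66 (70.3%), HSD11B2 with 0.43 (52.1%) and SRD5A1 with 0.25 (28.2%). The genes with the widest ratios were also those with blanks on 6 or more arrays, and the part of these blanks in the spread was not tested.

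**Figure D2:**
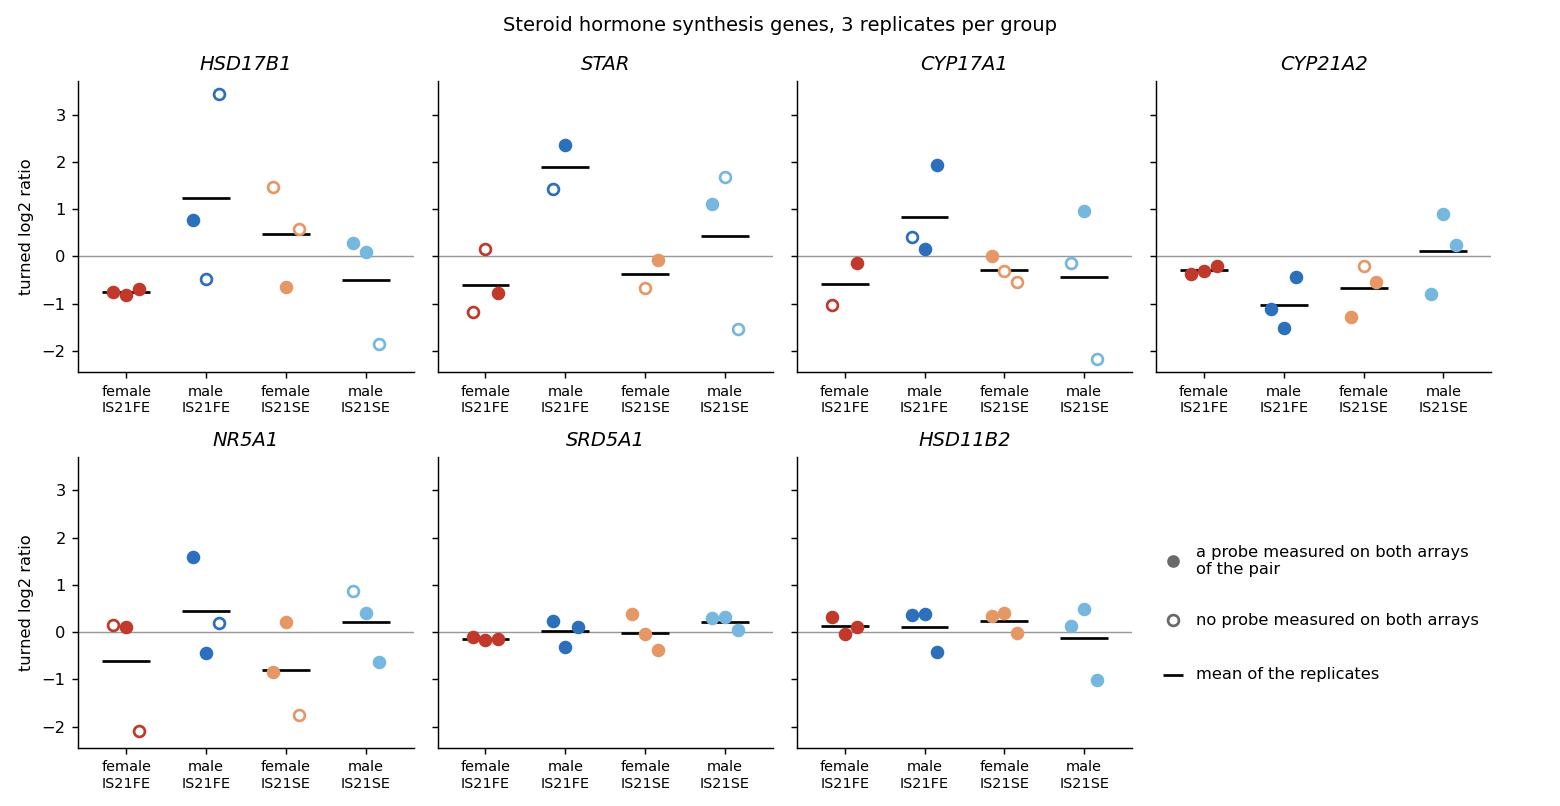
Turned log2 ratio (vertical axis) of each replicate of the 7 genes in the 4 groups (horizontal axis); filled points have a probe with a value on both arrays of the pair, open points do not, and bars are group means. HSD17B1 lies between -0.82 and -0.69 in female IS21FE pools, CYP21A2 is below 0 in 10 of 12 replicates, and SRD5A1 stays between -0.37 and 0.38.

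STAR, which delivers cholesterol to the first enzyme, had ratios of -1.17, 0.16 and -0.78 in female IS21FE replicates 1 to 3. In male IS21FE replicates 1 and 2 it had 1.42 and 2.36, and replicate 3 had no value. The female minus male difference had an adjusted limma p of 0.779. The female mean was -0.60 ± 0.68 (SD, n = 3; adjusted p = 0.911), and the male mean of 1.89 ± 0.66 (SD, n = 2) had an unadjusted limma p of 0.0294 and an adjusted p of 0.588.

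The male IS21FE values of STAR rested on 3 array readings. Replicate 1 had 1.42 from a single array with the treated RNA in Cy3, and the 2 arrays of replicate 2 gave 0.04 with the treated RNA in Cy5 and 4.68 with it in Cy3. The readings of replicate 2 differed widely, and the mean follows the arrays that were turned: with no array turned it was -1.87. In IS21SE pools STAR had -0.67 and -0.072 in female replicates 2 and 3, and 1.12, 1.68 and -1.53 in male replicates 1 to 3. The female mean was -0.37 ± 0.42 (SD, n = 2; adjusted p = 0.999) and the male mean 0.42 ± 1.72 (SD, n = 3; adjusted p = 0.832). Without male replicate 3 the male mean was 1.40.

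CYP17A1, the hydroxylase and lyase on the way to androgens, had -1.03 and -0.14 in female IS21FE replicates 1 and 3, with no value in replicate 2 (mean -0.59 ± 0.63, SD, n = 2; adjusted p = 0.923). It was positive in 3 of 3 male IS21FE replicates, at 0.40, 0.15 and 1.94. Replicate 1 had its value from 1 array. In replicate 2 the readings were -0.51 with the treated RNA in Cy5 and 0.81 with it in Cy3. The female minus male difference under IS21FE had an adjusted limma p of 0.838. The male mean was 0.83 ± 0.97 (SD, n = 3; adjusted p = 0.822), and without replicate 3 it was 0.28. With no array turned the male mean was -0.02. Female IS21SE replicates had 0.009, -0.30 and -0.54 (mean -0.28 ± 0.28, SD, n = 3; adjusted p = 0.999).

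In male IS21SE pools CYP17A1 had -0.14, 0.97 and -2.17 in replicates 1 to 3, the widest spread of the gene in a group. The mean was -0.45 ± 1.59 (SD, n = 3; adjusted p = 0.806), and 0.42 without replicate 3. That replicate had its value from 1 array, with the treated RNA in Cy3. With both arrays required replicate 2 alone was left, at 0.97.

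HSD17B1, the enzyme that makes oestradiol, had -0.75, -0.82 and -0.69 in the 3 female IS21FE replicates. Both of its probes were negative on every array that measured them there, 11 array values of 11, between -1.89 and -0.15. These values come from the same 3 replicates and from 2 probes of a single gene, so they are not independent readings. Of the 5 probes of the 7 genes with at least 5 female IS21FE arrays these 2 had a single sign throughout, and 7.5% of all such probes with a symbol did. The same count was 0 of 5 in male IS21FE pools (3.35% of all probes), 0 of 4 in female IS21SE pools (2.4%) and 0 of 5 in male IS21SE pools (9.36%).

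The mean of HSD17B1 in female IS21FE pools, -0.75 ± 0.067 (SD, n = 3), was not set apart from 0 by the fit over all groups, whose spread is common to all of them (adjusted p = 0.901). Restricted to replicates with a probe on both arrays the mean was -0.72 ± 0.095 (SD, n = 3). The restriction left 1 replicate in male IS21FE and 1 in female IS21SE pools, whose wide ratios then no longer entered the common spread, so no p is given for it. If the female columns had been turned already by the authors, the mean would be -0.09, since the 2 arrays of a pair would then cancel.

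The other groups of HSD17B1 had wide and overlapping ratios. Male IS21FE replicates had 0.78, -0.48 and 3.43, with a mean of 1.25 ± 2.00 (SD, n = 3; adjusted p = 0.771) that was 0.15 without replicate 3. With a probe required on both arrays only replicate 1 was left there, at -1.33, the opposite sign. The 2 probes disagreed there: in replicate 1 they gave 2.89 and -1.33, and in replicate 3 they gave 5.20 and 1.67, each from 1 array. Female IS21SE replicates had 1.47, -0.65 and 0.57 (mean 0.46 ± 1.06, SD, n = 3; adjusted p = 0.999), and the mean was -0.04 without replicate 1 and 1.02 without replicate 2. With both arrays required replicate 2 alone was left. Male IS21SE replicates had 0.28, 0.083 and -1.85 (mean -0.50 ± 1.17, SD, n = 3; adjusted p = 0.828), and 0.18 on average without replicate 3, which was also the one without a probe on both arrays. In male IS21SE replicate 2 the first probe gave -2.46 and 2.50 on its 2 arrays, so that its ratio near 0 is a mean of opposite readings.

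SRD5A1, the reductase that makes dihydrotestosterone from testosterone, had the narrowest ratios of the 7 genes, from -0.37 to 0.38 over 12 replicates. It was negative in the 3 female IS21FE replicates, at -0.096, -0.16 and -0.15 (mean -0.14 ± 0.036, SD, n = 3; adjusted p = 0.919). That mean was -0.29 with the treated RNA in Cy5 only and 0.012 with the control RNA in Cy5 only. SRD5A1 was positive in the 3 male IS21SE replicates, at 0.29, 0.33 and 0.046 (mean 0.22 ± 0.15, SD, n = 3; adjusted p = 0.633). There the mean was -0.005 with the treated RNA in Cy5 only and 0.45 with the control RNA in Cy5 only. Both common signs thus depended on the dye. In male IS21FE replicates it had 0.23, -0.31 and 0.12, and in female IS21SE replicates 0.38, -0.034 and -0.37, with means of 0.012 and -0.010.

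CYP21A2, the hydroxylase that leads to cortisol and aldosterone, was negative in 10 of 12 replicates, and both positive ratios were those of male IS21SE pools. Female IS21FE replicates had -0.38, -0.30 and -0.20, and male IS21FE replicates had -1.11, -1.52 and -0.44. Both ranges lay below 0, and the female minus male difference had an unadjusted limma p of 0.133 and an adjusted p of 0.838. The female mean was -0.30 ± 0.087 (SD, n = 3; adjusted p = 0.917), and the male mean -1.02 ± 0.54 (SD, n = 3; unadjusted p = 0.00898, adjusted p = 0.446 in limma).

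In IS21SE pools CYP21A2 had -1.28, -0.21 and -0.55 in female replicates, with a mean of -0.68 ± 0.55 (SD, n = 3; adjusted p = 0.999). Male replicates had -0.80, 0.91 and 0.24, on both sides of 0, with a mean of 0.12 ± 0.86 (SD, n = 3; adjusted p = 0.921). CYP21A2 was the single gene among the 5 members measured in all 12 replicates with the same sign in at least 10, which 8.23% of all genes measured in 12 replicates had. Its single probe read differently on the 2 arrays of a pair: in male IS21FE replicates 1 and 3 the readings were -2.26 and 0.037, and 0.37 and -1.26. Of its 11 complete pairs 6 had the same sign. If the female columns had been turned already, its female means would be 0.12 for IS21FE and 0.23 for IS21SE.

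HSD11B2, which inactivates cortisol and is known for that role in placenta and kidney, had small ratios apart from a single replicate. Female IS21FE replicates had 0.32, -0.043 and 0.11, and male IS21FE replicates 0.37, 0.38 and -0.41. Female IS21SE replicates had 0.35, 0.41 and -0.018, and male IS21SE replicates 0.13, 0.49 and -1.02. The 4 group means lay between -0.13 and 0.25, with adjusted p from 0.886 to 0.999, and the groups overlapped.

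NR5A1, the regulator of gonad and adrenal, had no common sign within any group. Female IS21FE replicates had 0.15, 0.11 and -2.08, and male IS21FE replicates 1.60, -0.45 and 0.20. Female IS21SE replicates had -0.85, 0.22 and -1.75, and male IS21SE replicates 0.87, 0.40 and -0.63. The means were -0.61 ± 1.28 in female IS21FE, 0.45 ± 1.05 in male IS21FE, -0.79 ± 0.99 in female IS21SE and 0.21 ± 0.77 in male IS21SE pools (SD, n = 3 each; adjusted p from 0.902 to 0.999). Its probes differed by over 2 log2 units in female IS21SE replicate 1 (0.16 and -1.85), in female IS21SE replicate 3 (-0.36 and -3.15) and in male IS21SE replicate 2 (-0.84 and 1.65). The lowest NR5A1 ratio, in female IS21FE replicate 3, came from 1 array. With a probe required on both arrays the female values were positive, at 0.30 for IS21FE (1 replicate) and a mean of 0.19 for IS21SE (2 replicates).

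A common sign in all 3 replicates of a group was frequent among all genes. In female IS21FE pools 3 of 6 members measured in 3 replicates had it (HSD17B1, CYP21A2 and SRD5A1), and 36.7% of all genes did. In male IS21FE pools 2 of 6 had it (CYP17A1 and CYP21A2) against 22.9%, and in female IS21SE pools 1 of 6 (CYP21A2) against 25.1%. In male IS21SE pools 1 of 7 had it (SRD5A1) against 35.1%.

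**Figure D3:**
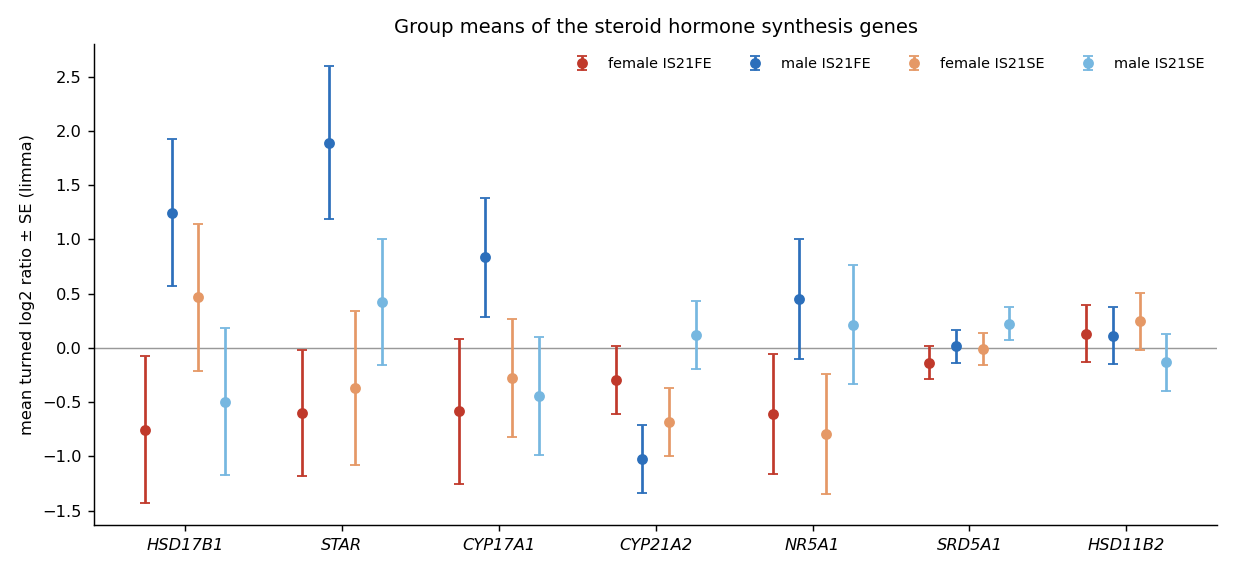
Mean turned log2 ratio (vertical axis) of the 7 genes (horizontal axis) in the 4 groups; bars are the standard error from limma, whose spread is common to all groups. STAR in male IS21FE pools (1.89) and CYP21A2 in male IS21FE pools (-1.02) are the means farthest from 0 relative to their bars.

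Over both sexes, IS21FE gave CYP21A2 a mean of -0.66 ± 0.22 (SE, n = 6 pools), with a 95% interval from -1.16 to -0.16. In all comparisons that join the sexes, female and male pools of the same 3 sows were fitted as independent replicates. Their SE, intervals and p values therefore count pools and not mothers. The estimate for CYP21A2 depended on the turn: it was -0.45 with only male arrays turned and -0.03 with no array turned. Its unadjusted limma p was 0.0145 and its adjusted p 0.538. It was the 1 member of 7 under an unadjusted p of 0.05 there, against 7.97% of all genes, and 0 of 7 passed the adjusted threshold, as did 0% of all genes. Under IS21SE, 0 of 7 had an unadjusted p under 0.05, against 7.57% of all genes, with CYP21A2 at -0.28 ± 0.22 (SE, n = 6; adjusted p = 0.788), which was 0.17 with only male arrays turned. There too 0 of 7 members passed the adjusted threshold, as did 0% of all genes.

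The female minus male difference asked whether a strategy's ratios differed between the sexes. Under IS21FE the difference for STAR was -2.49 ± 0.91 (SE, 3 female and 2 male replicates; 95% interval -4.61 to -0.37), with an unadjusted limma p of 0.0271 and an adjusted p of 0.779. It was -2.45 with only male arrays turned and 1.32 with no array turned, so that its sign rests on the turn of the male arrays. HSD17B1 followed with -2.00 ± 0.96 (interval -4.14 to 0.14; adjusted p = 0.826), but it was -0.91 without male replicate 3, and 0.62, the opposite sign, with a probe required on both arrays, which left 3 female replicates and 1 male replicate. CYP17A1 had -1.42 ± 0.86 (interval -3.38 to 0.54; adjusted p = 0.838), and -0.86 without male replicate 3. CYP21A2 had the opposite sign, 0.73 ± 0.44 (interval -0.27 to 1.72; adjusted p = 0.838). NR5A1 had -1.06 ± 0.78 (interval -2.80 to 0.69; adjusted p = 0.869), and SRD5A1 and HSD11B2 had -0.15 and 0.019. STAR was the 1 member of 7 with an unadjusted p under 0.05, against 6.05% of all genes, and 0% of all genes passed the adjusted threshold. Male arrays were wider than female arrays over all genes, so that a difference between the sexes also compares arrays of unlike scale.

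Under IS21SE the difference between the sexes was -0.79 for CYP21A2 (SE 0.44; interval -1.79 to 0.20; adjusted p = 0.769), -1.01 for NR5A1 and 0.96 for HSD17B1. That of CYP21A2 was 0.12 with only male arrays turned, and that of HSD17B1 was -0.83 with both arrays required (1 female and 2 male replicates). STAR had -0.79, CYP17A1 0.17, SRD5A1 -0.23 and HSD11B2 0.38. An unadjusted p under 0.05 was found for 0 of 7 members, against 7.06% of all genes, and 0% of all genes passed the adjusted threshold.

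IS21FE minus IS21SE, over both sexes, gave 0.62 ± 0.64 for STAR (SE, n = 10 replicates), 0.49 ± 0.58 for CYP17A1 (n = 11) and 0.26 ± 0.68 for HSD17B1 (n = 12). CYP21A2 had -0.38 ± 0.31 (SE, n = 12; interval -1.08 to 0.33), NR5A1 0.21, SRD5A1 -0.17 and HSD11B2 0.064. The adjusted p values lay between 0.956 and 0.989. Again 0 of 7 members had an unadjusted p under 0.05, against 5.15% of all genes, and 0% of all genes passed. The intervals for STAR (-0.88 to 2.12), CYP17A1 (-0.83 to 1.80) and HSD17B1 (-1.25 to 1.78) were wide, and the narrowest was that of SRD5A1, -0.51 to 0.17.

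Several members had their extreme ratios in the same replicate. The lowest ratio of STAR, CYP17A1, HSD17B1 and HSD11B2, 4 of the 7 genes, was that of male IS21SE replicate 3, and all 4 lay beyond -1 there. Those of STAR, CYP17A1 and HSD17B1 came from 1 array each. The share of all genes with their lowest ratio in this replicate was not counted. In that replicate 14.5% of all genes lay beyond 1 log2 unit on either side, close to male IS21SE replicates 1 and 2 (14.3% and 14.0%), and the median of all genes was -0.005. Male IS21FE replicate 3 held the highest ratio of HSD17B1 and of CYP17A1, with 17.3% of all genes beyond 1.

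Among the 21 pairs of members, HSD17B1 with CYP17A1 had the highest Pearson's r and STAR with CYP17A1 the highest Spearman's rho, both given as a description without a test. HSD17B1 and CYP17A1 had r 0.81 and rho 0.71 over 11 replicates, but r was 0.31 without the 2 extreme replicates, male IS21FE replicate 3 and male IS21SE replicate 3, so that the relation rests on these. Within the sexes r was 0.47 over 5 female and 0.88 over 6 male replicates. STAR and CYP17A1, the steps before androgens, had r 0.79 and rho 0.88 over the 9 replicates with both. Without the 2 replicates whose CYP17A1 ratios lay farthest from the median, male IS21SE replicates 3 and 2, r was 0.76. Within the sexes r was 0.38 over 4 female and 0.91 over 5 male replicates, too few to test. The STAR ratios of these replicates leave a gap between -0.072 and 1.12, with 5 replicates under it and 4 over it, and all 4 above the gap are male. Female IS21FE replicate 2 had a STAR ratio of 0.16, inside the gap, but no CYP17A1 value, and is not among these replicates. The points of a pair come from the same arrays and from 4 groups, and sex cannot be told apart from the position of a point above the gap.

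**Figure D4:**
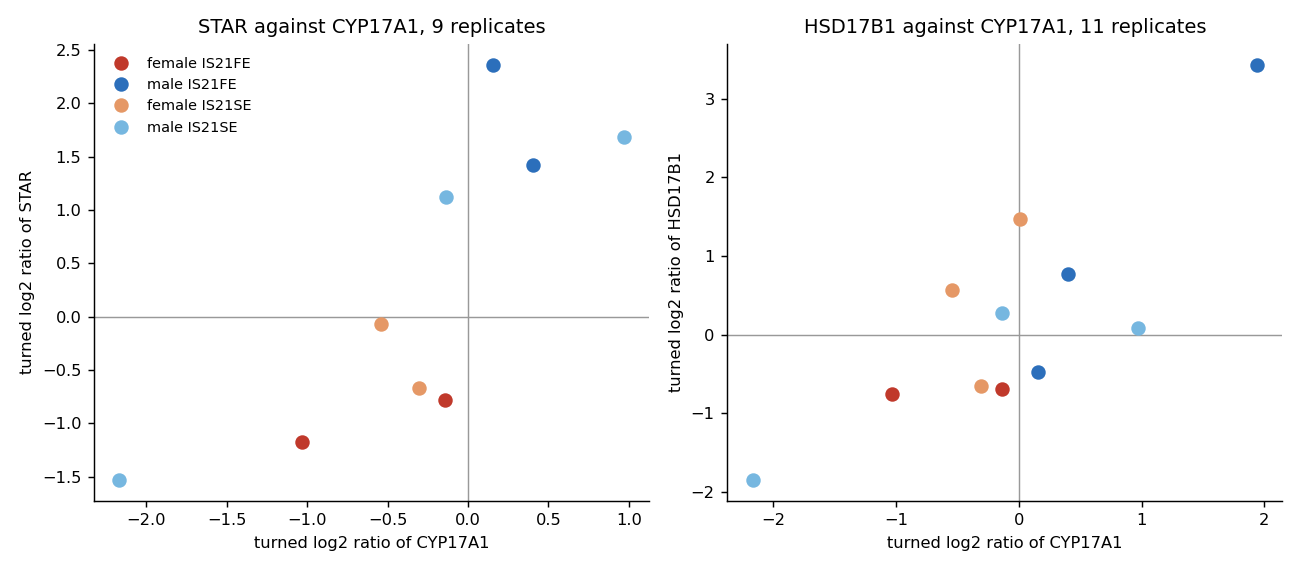
Turned log2 ratios of STAR (left) and HSD17B1 (right) on the vertical axes against CYP17A1 on the horizontal axes, a point per replicate, coloured by group. In the left panel STAR is at -1.53 to -0.072 in 5 replicates and at 1.12 to 2.36 in the other 4. Female IS21FE replicate 2 (STAR 0.16) has no CYP17A1 value and no point. In the right panel the points at both ends are male IS21FE and male IS21SE replicate 3.

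The 2 arrays of a dye-swap pair are readings of the same RNAs, and after the turn equal readings share a sign. Over the 9 probes, 39 of 64 complete pairs did (60.9%), against 49.8% over all probes with a symbol. The share was 19 of 32 in female pools and 20 of 32 in male pools. It was 13 of 17 in female IS21FE pools, 10 of 15 in male IS21FE, 6 of 15 in female IS21SE and 10 of 17 in male IS21SE pools. HSD17B1 had the same sign in 9 of 12 pairs, all 5 of its female IS21FE pairs among them. SRD5A1 had it in 6 of 12 and HSD11B2 in 7 of 12. Probe pairs of a gene and of a replicate share RNA, so no test was made.

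**Figure D5:**
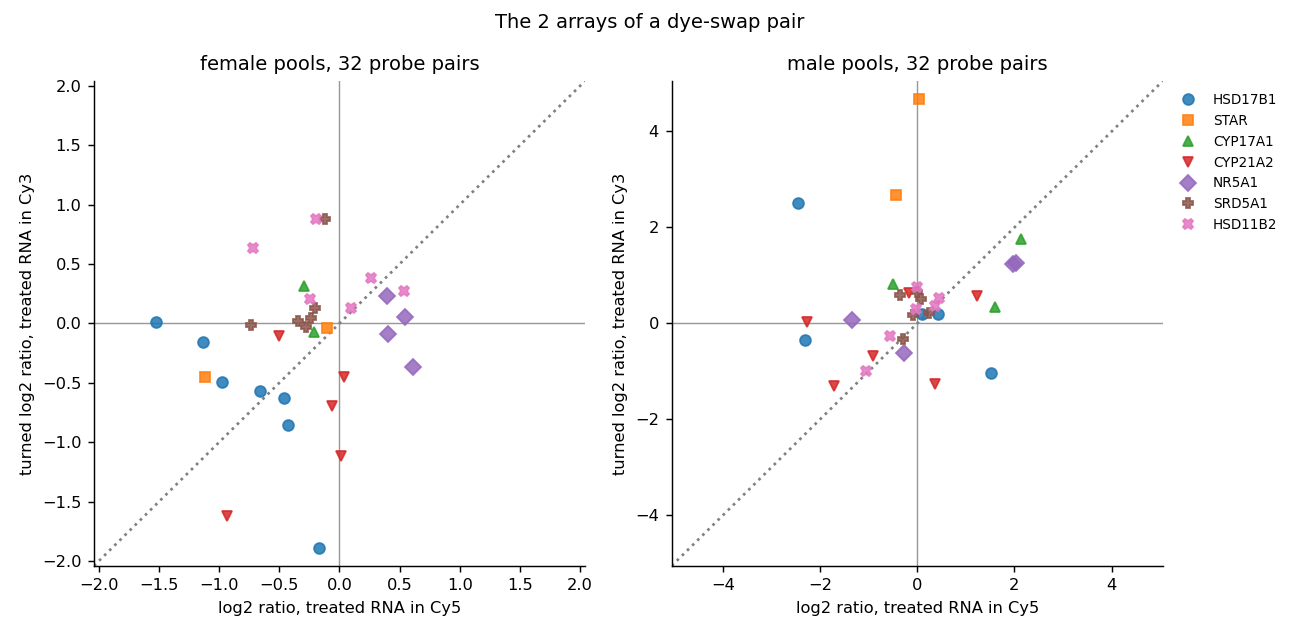
Turned log2 ratio on the array with the treated RNA in Cy3 (vertical axis) against that with the treated RNA in Cy5 (horizontal axis), a point per probe and replicate, for 32 female (left) and 32 male (right) pairs; the axes of the panels differ in range and the dotted line marks equal readings. HSD17B1 lies mostly in the lower left of the female panel, and the STAR points of the male panel lie far above the line.

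The genes whose 12 ratios were most like those of a member were taken from 8984 genes with a symbol measured in all 12 replicates, as a description over replicates that share arrays. For HSD17B1 they were TRPS1 (Pearson's r 0.94), SLAMF1 (0.88) and ZIC2 (0.86). For CYP21A2 they were NR1H2 (0.91), TNNI3 (0.90) and PSMB6 (0.89), and for NR5A1 CHN2 (0.91), C15H2orf82 (0.83) and SYT11 (0.81). SRD5A1 was followed most closely by NR1H3 (0.90), CKAP4 (0.83) and FHIT (0.82), and HSD11B2 by SSTR2 (0.91), PHLDB3 (0.87) and ZNF507 (0.87). STAR and CYP17A1 were not measured in all 12 replicates and were left out of this search.

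Other genes of the pathway and of the cells that use it gave no call either. Of 8 lists with 92 to 94 tested genes, 0 genes passed limma's adjusted threshold in any of the 9 comparisons. At an unadjusted p under 0.05 there were 4 of 94 in female IS21FE pools (7.07% of all genes), 7 of 92 in male IS21FE (7.49%), 5 of 94 in female IS21SE (4.03%) and 14 of 93 in male IS21SE pools (11%). Over both sexes there were 6 of 92 under IS21FE (7.97% of all genes) and 13 of 93 under IS21SE (7.57%).

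Of 13 genes that supply or deliver cholesterol, 8 were measured. TSPO, a cholesterol-binding protein of the outer mitochondrial membrane, had 0.45 ± 0.25 in male IS21FE and 0.52 ± 0.12 in male IS21SE pools (SD, n = 3; adjusted p = 0.622 and 0.393). STARD4, a cytosolic relative of STAR, had -0.48 ± 0.39 in male IS21SE pools (SD, n = 3; adjusted p = 0.361). The median of the list lay between -0.03 and 0.05 in the 4 groups, with medians of all genes between -0.015 and 0.014.

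Among 17 of 33 other enzymes of steroid synthesis and interconversion, 13 were positive and 4 negative in male IS21SE pools, with a median of 0.18. The medians of the list in that group's 3 replicates ran from 0.16 to 0.22. HSD17B2, which oxidises oestradiol back to oestrone, had 0.58 ± 0.13 there (SD, n = 3; adjusted p = 0.384). HSD17B7, a dehydrogenase of oestradiol and cholesterol synthesis, had 0.29 ± 0.12 in female IS21FE pools (SD, n = 3; adjusted p = 0.692). In the other 3 groups the median lay between 0.03 and 0.08. Of 17 genes of steroid conjugation and breakdown 4 had a probe, and STS, the steroid sulphatase, had -0.49 ± 0.20 in female IS21SE pools (SD, n = 3; adjusted p = 0.999).

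Of 13 steroid receptors and binding proteins 10 were measured. NR3C2, the mineralocorticoid receptor, had -1.56 ± 1.37 in male IS21FE pools (SD, n = 3; adjusted p = 0.477). NR3C1, the glucocorticoid receptor, had -0.33 ± 0.30 there (SD, n = 3; adjusted p = 0.709). The medians of the list lay between -0.03 and 0.06.

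The pools were whole embryos, in which fewer cells of a type and less RNA per cell cannot be told apart. Of 32 genes of gonad and adrenal cells and their regulators 25 were measured, with medians from -0.03 to 0.05 in the 4 groups and from -0.13 to 0.09 in the 12 replicates. INHA, the alpha chain of inhibin, had 0.91 ± 0.54 and AMH, a hormone of Sertoli cells, -0.45 ± 0.22 in female IS21FE pools (SD, n = 3; adjusted p = 0.648 and 0.686). In male IS21FE pools the nuclear receptor NR4A2 had -0.74 ± 0.76 and the Sertoli cell ligand DHH -0.85 ± 0.57 (SD, n = 3; adjusted p = 0.477 and 0.598). In female IS21SE pools PRKACA, a catalytic subunit of protein kinase A, had -0.24 ± 0.15 and NR4A2 -0.56 ± 0.31 (SD, n = 3; adjusted p = 0.999 each). In male IS21SE pools INSL3, a hormone of Leydig cells, had 1.51 ± 0.88 and DLK1 0.44 ± 0.059 (SD, n = 3; adjusted p = 0.315 and 0.30).

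Markers of other tissues that make or inactivate steroids were read beside the members. Of 25 trophoblast and endometrium markers 17 were measured, with medians from -0.12 to -0.02 in the 4 groups. SAL1, a lipocalin, had 2.50 ± 0.98 in male IS21SE pools (SD, n = 3; unadjusted p = 5.52e-05, adjusted p = 0.212 in limma), the smallest p among the list genes named. IL1B2, an interleukin of the pig conceptus, had -0.85 ± 0.55 in female IS21FE and -0.71 ± 0.33 in female IS21SE pools (SD, n = 3; adjusted p = 0.585 and 0.999). CDX2, a transcription factor of the trophectoderm, had -1.66 ± 2.64 in male IS21FE pools (SD, n = 3; adjusted p = 0.667). Of 10 liver markers 8 were measured, with medians from 0.08 to 0.22, and in the replicates from -0.41 to 0.74. In female IS21SE and in male IS21SE pools alike, 6 of the 8 were positive and 2 negative. Among the positive ones, APOA1 had 0.27 ± 0.62 in female IS21SE and 0.56 ± 0.08 in male IS21SE pools (SD, n = 3; adjusted p = 0.999 and 0.419 in limma). Against that sign HNF4A, a transcription factor of hepatocytes, had -0.88 ± 0.40 in female IS21SE and -1.13 ± 0.74 in male IS21SE pools (SD, n = 3; adjusted p = 0.999 and 0.397). Of 10 kidney and mesonephros markers 5 were measured, with medians from -0.08 to 0.07. In male IS21SE replicate 3, where 4 members had their lowest ratio, the list medians were -0.055 for gonad and adrenal, -0.11 for trophoblast and endometrium, -0.021 for liver and 0.12 for kidney markers. Their part in the members' ratios was not tested.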

How the data were processed

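The authors deposited log ratios of 24 arrays and 43749 probes, read as log2 because they span -9.34 to 9.85. How they were normalized, corrected for background or filtered, and the order of the dyes, is not given in the sources used here. Blank cells made up 16.6%. Per the labels' protocols, RNA was column-purified and 200 ng labelled with a low input kit. The number of arrays limits precision. Depth does not apply, and signal over background was not used here.

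Arrays whose Cy5 channel held control RNA were multiplied by -1, and means were taken over the measured arrays of a replicate, then over a gene's probes. Of the probes 18109 had a single symbol in the platform annotation and 25640 had none, and 348 symbols were updated. A common fit of 4 group means on 12 replicates was made with limma 3.58.1 in R 4.3.3 with Benjamini-Hochberg adjustment, and adjusted p values are limma's. It was checked on simulated data. Same-numbered female and male pools of a strategy deviated together little (r from 0.0074 to 0.083 in 6 pairs across genes). The labels do not say whether they share a sow, and numbers were not used as pairs. List genes named are among the 2 with the smallest p per list and group. The members, lists and tests were chosen with earlier results of these data known. Alternatives are given in the closing section. No genome was used and no sequences are shown.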

Additional observations from a re-analysis of the deposited data

How the results depend on the processing

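None of the 7 genes passed under any alternative run. Their lowest adjusted p was 0.116, for SRD5A1 under IS21SE over both sexes with no array turned. The sign of the 28 group means depended most on the turn: it changed for 14 with no array turned and for 6 with only male arrays turned. It changed for 6 of 26 means with the treated RNA in Cy5 only, 3 of 24 with the control RNA in Cy5 only and 2 of 18 where both arrays were required. It changed for 1 of 26 without 3 arrays of female pools that resemble each other, and for 15 of 78 means with a replicate left out. It changed for 0 under the remaining alternatives: array weights, array scale and centre, replicate block, single arrays, groups fitted alone and stricter or looser filters. Of the 35 values over both sexes, between sexes or between strategies, the sign changed for 19 with no array turned and for 11 with only male arrays turned. It changed for 7 of 29 with the treated RNA in Cy5 only, 5 of 24 with the control RNA in Cy5 only, 5 of 35 with single arrays, 3 of 35 with scaled arrays and 25 of 234 with a replicate left out, and for 1 each with array weights, both arrays required and without the 3 arrays.

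Counts of all genes past the threshold (0, and 1 in male IS21FE) moved in these cases. With no array turned 291 passed in female IS21FE, 117 in female IS21SE, 290 in IS21FE over both sexes and 5 in IS21SE over both sexes. With only male arrays turned 7 passed in female IS21FE and 3 in male IS21FE. With the treated RNA in Cy5 only 8 passed in male IS21FE and 5 in male IS21SE, and with the control RNA in Cy5 only 1 for female minus male under IS21FE and 1 for IS21FE minus IS21SE. Single arrays with a dye term gave 1 in female IS21FE, 0 in male IS21FE, 4 in male IS21SE, 2 in IS21FE over both sexes and 1 for female minus male under IS21FE. With the replicate block 0 passed in male IS21FE, 1 in male IS21SE, 1 in IS21SE over both sexes and 1 for female minus male under IS21SE. The labels do not say whether the replicate numbers pair the pools. Arrays scaled to one SD gave 2 in female IS21FE and 2 in IS21FE over both sexes, and array weights gave 1 in female IS21FE. With at least 1 replicate measured 6 passed in male IS21FE, 1 in male IS21SE, 1 in IS21SE over both sexes and 1 for female minus male under IS21FE. Probes tested singly gave 7 in male IS21FE, 1 in male IS21SE and 1 in IS21FE over both sexes. In male IS21FE 0 passed where both arrays were required, with groups fitted alone and without the 3 arrays. With a replicate left out, counts ran from 2 (without male IS21FE replicate 2) to 25 (without replicate 1) in male IS21FE, from 0 to 3 in IS21FE over both sexes, from 0 to 4 for female minus male under IS21FE, from 0 to 1 for IS21FE minus IS21SE and from 0 to 3 in male IS21SE. The cause of these shifts was not tested.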
